A study of Rattus norvegicus with 12 samples.

Results

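The comparison described here sets livers of Sprague-Dawley rats given geniposide plus chlorogenic acid on a high-fat diet against livers of rats on the high-fat diet without therapy. Rats of the GC group ate the high-fat diet for 4 weeks and then received a mixture of geniposide and chlorogenic acid by daily gavage for 4 further weeks while the diet continued. Rats of the HFD group ate the high-fat diet and received no therapy. The dose and the weight ratio of the GC mixture are not given in the labels, nor is whether the HFD rats were given a vehicle by gavage. The titles name 4 weeks for every group, so the total time of the HFD rats on the diet, and whether it matched that of the GC rats, is not known. Each group had 3 animals with 1 array each, so 6 of the 12 arrays of the series enter the comparison directly. The other arrays were 3 from rats given Qushi Huayu Decoction (QHD, a Chinese herbal decoction, 0.1 ml/kg by daily gavage on the same schedule as GC) and 3 from rats on a normal diet. The labels used here give neither the sex and age of the animals nor the time of day at which tissue was taken. The genes were those of the 20832 probe sets with a single gene symbol, among 31099 on the array, and the 12246 with a mean log2 signal above 6.664 were tested. They stood for 9459 genes.

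Geniposide is an iridoid glycoside of gardenia fruit, and chlorogenic acid is an ester of caffeic and quinic acids found in many plants. A high-fat diet loads the liver with triglyceride, and hepatocytes respond by burning fatty acids in mitochondria and peroxisomes under the nuclear receptor PPAR alpha, by storing them in lipid droplets and by exporting them in lipoproteins. Synthesis of sterols and fatty acids is driven by SREBP transcription factors, which the INSIG proteins hold back in the endoplasmic reticulum, and defence against reactive molecules is driven by the transcription factor NRF2.

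Signals were log2 values on which each array had been scaled to the same trimmed mean. The 6 arrays carried liver RNA, with a median over 16 hepatocyte markers of 14.79 to 14.93 in GC livers and 14.71 to 15.06 in HFD livers. Pancreatic acinar markers lay under the signal filter for 9 of 10 genes and muscle markers for 12 of 13. Among the HFD arrays, the array labelled HFD 36 correlated at 0.953 and 0.97 with the other HFD arrays and at 0.97 to 0.975 with the GC arrays, taken across probe sets that are not independent of each other. HFD 24 correlated at 0.953 to 0.972 with its own group and at 0.958 to 0.962 with the GC arrays. For HFD 87 these ranges were 0.97 to 0.972 and 0.958 to 0.973. GC 35 correlated at 0.967 to 0.971 with its own group and at 0.958 to 0.974 with the HFD arrays. The correlations thus did not separate the groups cleanly. Because HFD 36 was the HFD array nearest the GC arrays, the calls are also given without HFD 36, as are the list medians it moved most. The array labelled normal diet 3 lacked hepatocyte mRNA and was left out of the fit, which used 11 arrays. In tissue RNA, fewer cells of a type and less RNA per cell cannot be told apart. The p-values rest on the spread between animals of the same group, pooled over all groups of the 11 arrays, QHD and normal diet included. The number of arrays limits their precision.

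Livers of GC rats differed from livers of HFD rats in 8 probe sets, each of a different gene, at an adjusted p under 0.05, which is 0.0653% of those tested. Of these, 7 were lower in GC livers (Insig1, Sall1, Rcan2, Aadac, Pkdcc, AKR1C3l1 and Mtmr7), which is 0.0572% of those tested, and Atp6v1d was higher, which is 0.00817%. No probe set was called by limma with only the 6 arrays compared (866 at an unadjusted p under 0.05) or over all 12 arrays (298), nor from the p-values of the authors' deposited table after adjustment. The 8 probe sets called in the fit of 11 arrays differed by 1.56 to 4.14 times between group means. All GC arrays lay apart from all HFD arrays for 1627 probe sets, which is 13.3%, and 1046 probe sets, or 8.54%, had an unadjusted p under 0.05. The median difference over all probe sets was 0.033 on the log2 scale, and 97 differed by more than 1, 41 of them higher and 56 lower in GC livers.

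**Figure D1:**
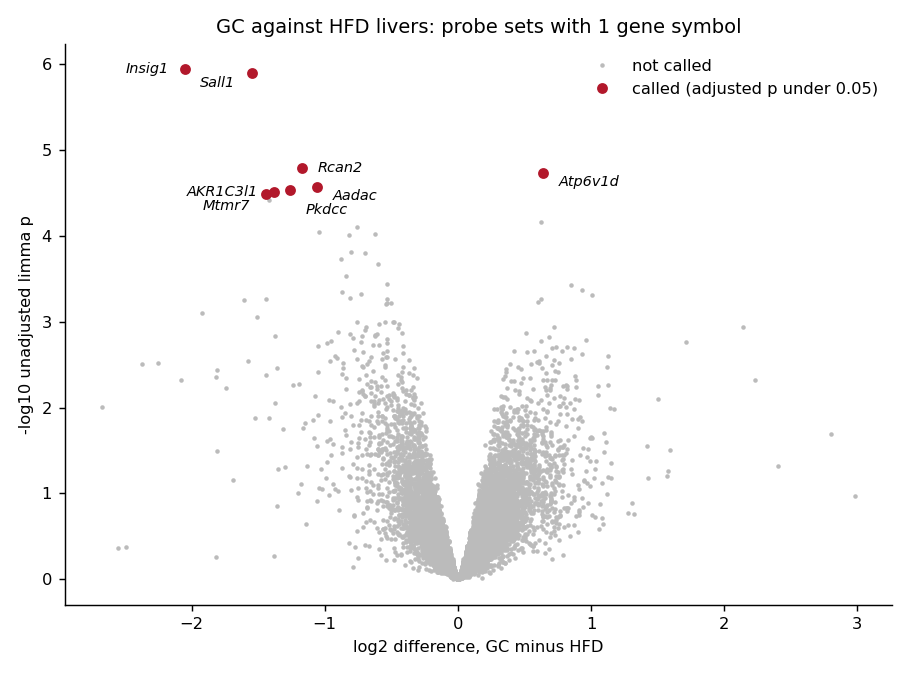
Each point is 1 of the 12246 probe sets, with the log2 difference between GC and HFD livers on the x axis and the negative log10 of the unadjusted limma p on the y axis, and red points are the 8 probe sets called. The called probe sets lie at the left except Atp6v1d, and several grey points lie farther from 0 than the called ones but with larger p.

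Insig1, which encodes an endoplasmic reticulum protein that retains SREBP precursors and promotes the breakdown of HMG-CoA reductase, had the largest difference of the called genes. Its log2 signal was 9.74, 10.07 and 9.87 in GC livers, against 12.34, 11.48 and 12.00 in HFD livers. The groups did not overlap, and the lowest HFD array lay more than 1 log2 unit above the highest GC array. The difference was -2.05 ± 0.22 on the log2 scale (SE, n = 3 each, adjusted p = 0.00781), or 4.14 times. QHD livers, at 11.61, 11.55 and 11.92, also lay above every GC array, and the 2 normal diet arrays averaged 13.26. Insig1 was the single called gene among the 14 tested genes of sterol sensing and LDL uptake, against 0.0846% of all genes. The median difference of these 14 genes was -0.01, against 0.03 over all genes. Insig2, a close relative of Insig1, had a log2 difference of -0.67 ± 0.26 (adjusted p = 0.526), and its groups overlapped.

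The promoter of Insig1 is shown because this gene had the largest called difference, and that of Gclm, described further on, because it had the smallest p of the higher genes that missed the threshold. Each runs 5′ to 3′ over the 250 bases before the RefSeq gene start in build GRCr8, at chr4:8057770-8058019 on the minus strand for Insig1 and at chr2:213031885-213032134 on the plus strand for Gclm. Capitals mark an E-box (CACGTG, the same on both strands) in Insig1 and, in Gclm, the antioxidant response element core (TGACNNNGC) read on the opposite strand.
Insig1: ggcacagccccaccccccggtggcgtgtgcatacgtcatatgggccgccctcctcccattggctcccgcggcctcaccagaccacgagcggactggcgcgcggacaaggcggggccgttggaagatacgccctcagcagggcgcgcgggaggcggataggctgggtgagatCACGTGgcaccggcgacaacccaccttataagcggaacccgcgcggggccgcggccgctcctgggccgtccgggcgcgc
Gclm: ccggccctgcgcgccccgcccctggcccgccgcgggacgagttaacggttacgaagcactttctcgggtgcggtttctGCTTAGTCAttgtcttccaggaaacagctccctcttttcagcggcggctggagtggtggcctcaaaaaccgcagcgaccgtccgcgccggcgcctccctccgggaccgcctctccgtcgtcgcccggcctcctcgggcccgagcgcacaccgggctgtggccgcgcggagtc
In windows of 250 bases before to 50 after the gene start, on both strands, the E-box letters stood in 6.42% of 33469 RefSeq promoters and the antioxidant response element core in 12.1%. Promoters were found for 17 of the 20 genes named by rank, and 4 of these (Insig1, Bcar3, Smpdl3b and Nol6) held an E-box and 3 (Gclm, Rcan2 and Aspg) the antioxidant response element core. The E-box of Insig1 begins 79 bases before the gene start and the element of Gclm 172 bases before it. A sterol regulatory element (TCACNCCAC, in 1.12% of promoters) and a forkhead motif (TGTTTAC, in 3.78%) were matched in none of the 17. A match describes letters in this window and no more.

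Sall1, a zinc finger transcription factor of organ development, read 8.41, 7.84 and 8.31 in GC livers, against 9.62, 9.85 and 9.75 in HFD livers. Every GC array was lower than every HFD array, and the 3 HFD arrays lay close together. The difference was -1.55 ± 0.17 (adjusted p = 0.00781). Rcan2, an inhibitor of the phosphatase calcineurin, read 7.99, 8.17 and 8.06 in GC livers, against 8.95, 9.13 and 9.65 in HFD livers. Its difference was -1.17 ± 0.17 (adjusted p = 0.0495). The other Rcan2 probe set differed by -0.46 with an adjusted p of 0.598, so the call rests on 1 of 2 probe sets.

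Aadac, a microsomal esterase that hydrolyses triglyceride and drug esters, read 10.71, 10.42 and 10.72 in GC livers, against 11.93, 11.40 and 11.71 in HFD livers, a difference of -1.06 ± 0.16 (adjusted p = 0.0495). AKR1C3l1, an aldo-keto reductase of the 1C family, read 10.69, 10.52 and 10.56 in GC livers, against 12.14, 11.60 and 12.19 in HFD livers, a difference of -1.38 ± 0.21 (adjusted p = 0.0495). For both enzymes the array HFD 36 was the lowest of its group, still above all GC arrays. The 1C family has near-identical members, and whether this probe set also reads another of them was not tested.

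Mtmr7, a phosphoinositide phosphatase of the myotubularin family, read 7.04, 7.28 and 7.20 in GC livers, against 9.07, 8.26 and 8.52 in HFD livers, a difference of -1.44 ± 0.22 (adjusted p = 0.0495). Pkdcc, a secreted protein kinase, read 9.46, 9.39 and 9.37 in GC livers, against 11.07, 10.31 and 10.59 in HFD livers, a difference of -1.26 ± 0.19 (adjusted p = 0.0495). The GC arrays of Pkdcc lay close together, while the HFD arrays spread more widely. Atp6v1d, subunit D of the proton pump that acidifies lysosomes, read 12.26, 12.10 and 12.15 in GC livers, against 11.49, 11.57 and 11.53 in HFD livers. It was the called gene that rose, by 0.64 ± 0.09 (adjusted p = 0.0495), or 1.56 times. Of 16 tested subunit and accessory genes of that pump, 9 differed above 0 and 7 below, with a median of 0.06. Atp6v1d was the single gene called among them, against 0.0846% of all genes.

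**Figure D2:**
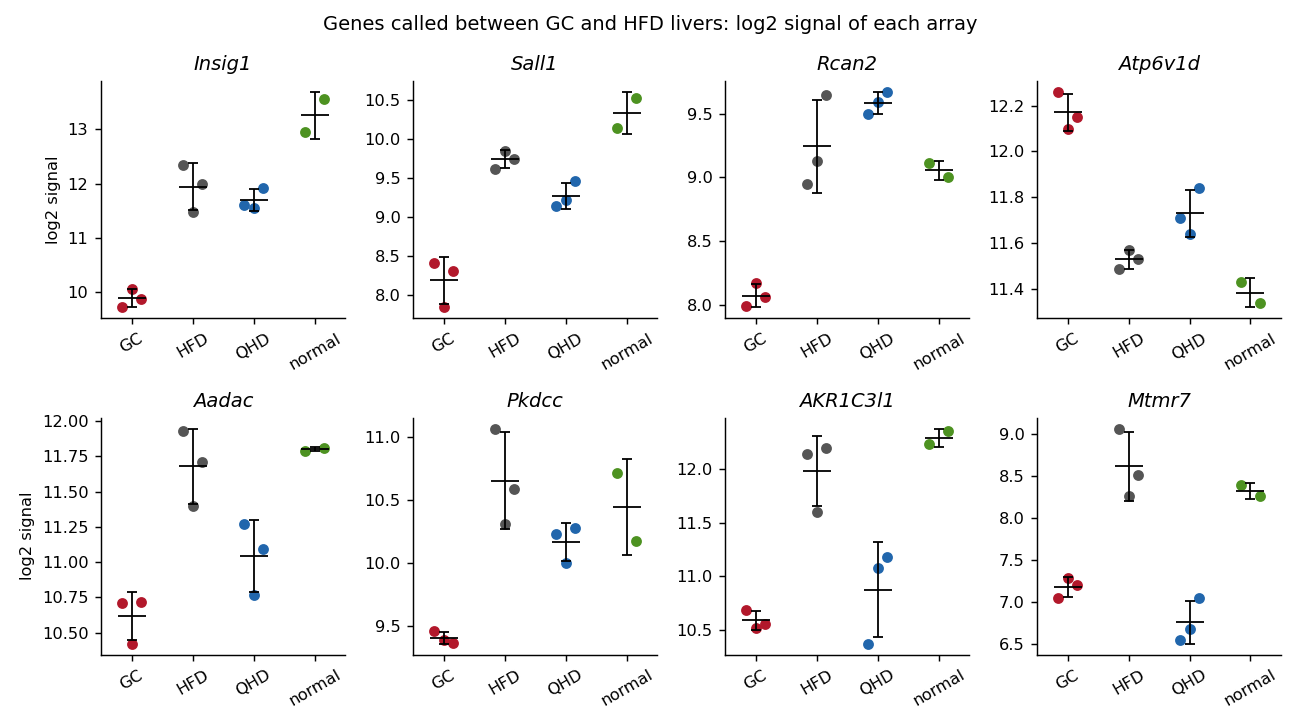
Log2 signal of every array for the 8 called genes, with GC, HFD, QHD and normal diet livers from left to right and the black bars giving the mean and SD of each group (n = 3, and n = 2 for the normal diet). GC and HFD arrays do not overlap for any of the 8 genes, and QHD arrays lie near GC for Mtmr7 and AKR1C3l1 and near HFD for Insig1.

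The calls depended on single arrays, and Insig1 and Sall1 were the ones least affected. Insig1 was called in 9 of the 11 fits that left out 1 array and Sall1 in 10, with adjusted p of 0.00161 to 0.0912 and of 0.0121 to 0.0748. Leaving out HFD 24 or QHD 45 kept 3 of the 8 calls, GC 35 kept 1, and GC 37, QHD 46, QHD 47 or either normal diet array kept 2, with no other probe set called. Leaving out GC 55 gave 5 calls, of which 2 were among the 8. Rcan2 and AKR1C3l1 were called in 2 of these fits and Atp6v1d, Aadac, Pkdcc and Mtmr7 in 1. No difference of these 8 genes changed sign in any fit. Without HFD 87, limma called 0 probe sets, with 659 at an unadjusted p under 0.05, and without HFD 36 it called 104, 31 higher and 73 lower in GC livers, among them all 8. The 104 were 0.85% of those tested in that fit. In the fit without HFD 36, Cyp4a3, Ehhadh, Hsd17b4 and Cpt2 of fatty acid oxidation, Asl, Ass1, Cbs, Ftcd and Uroc1 of amino acid breakdown and the urea cycle, and Lpin1 and Apoa5 of triglyceride handling were called lower in GC livers, and Gclm, Sod2, Tlr2, Psmb9, Ubd and Fas higher. These genes were picked from the lists after their values were seen. HFD 36 was singled out from the values compared, as the HFD array nearest the GC arrays. Leaving out such an array favours a wider difference, so the calls without it are no separate evidence. No label sets HFD 36 apart from its group, and the values below are from all 3 HFD arrays unless stated. The medians of gene lists depended on single arrays too, and for 40 of 44 lists the median turned sign or moved by more than 1.5 times without 1 of the 6 arrays.

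**Figure D3:**
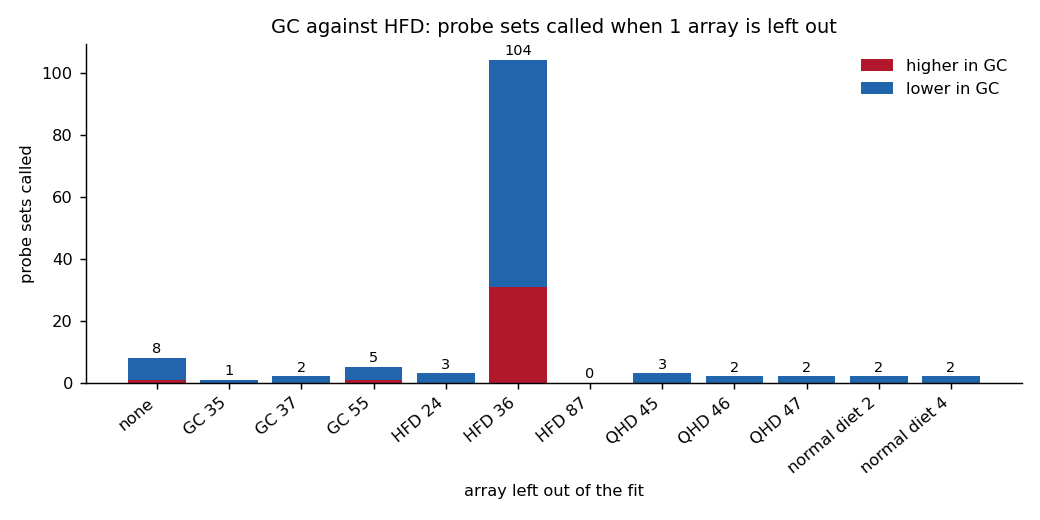
Number of probe sets called between GC and HFD livers (y axis) in the fit of 11 arrays and when 1 array is left out (x axis), with red for higher and blue for lower in GC livers. The count is 8 with no array left out, 104 without HFD 36, 0 without HFD 87 and at most 5 otherwise.

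The genes next in rank missed the threshold, and their values are given without a call. Of the higher ones, Gclm, the modifier subunit of the enzyme that limits glutathione synthesis, read 12.25, 12.14 and 11.98 in GC livers, against 11.55, 11.41 and 11.54 in HFD livers (0.62 ± 0.10, adjusted p = 0.0859). The X-linked inhibitor of apoptosis Xiap differed by 0.93 ± 0.19, the sphingomyelinase-like Smpdl3b by 1.01 ± 0.21, the adaptor Bcar3 by 0.85 ± 0.17, the ribosome assembly factor Nol6 by 0.62 ± 0.13 and the sulphate donor synthase Papss1 by 0.72 ± 0.17, with adjusted p of 0.219 to 0.319. The endoplasmic reticulum protein Lrrc59 differed by 0.51 and 4930522L14Rikl by 0.60. Of the lower ones, Col4a5, a basement membrane collagen, read 7.50, 7.83 and 7.87 in GC livers, against 9.50, 8.68 and 9.28 in HFD livers (-1.42 ± 0.22, adjusted p = 0.0516). Igfbp3, which carries insulin-like growth factors in blood, differed by -0.76 ± 0.13 and the asparaginase Aspg by -1.04 ± 0.18, both with an adjusted p of 0.086. The value of Igfbp3 is from 1 of 2 tested probe sets, and the other differed by -0.54. GC and HFD arrays did not overlap for any of these genes, as the rule that named them required.

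Genes of fatty acid oxidation and other PPAR alpha targets lay mostly below their HFD level. Of 36 tested, none was called (0.0846% of the 9459 genes were), 32 had a log2 difference below 0 and 3 above, and the median was -0.25, while 43.4% of all genes lay below 0 and their median was 0.03. All GC arrays lay below all HFD arrays for 7 of them, against 5.85% of all genes, and none lay above. Angptl4, an inhibitor of lipoprotein lipase, read 10.60, 8.81 and 9.81 in GC livers, against 11.43, 11.51 and 12.06 in HFD livers (-1.92 ± 0.40, adjusted p = 0.281). Pdk4, which turns pyruvate away from oxidation, read 10.21, 10.75 and 11.21 in GC livers, against 11.87, 12.48 and 12.56 in HFD livers (-1.58 ± 0.40, adjusted p = 0.349). For these genes HFD 36 sat with the other HFD arrays. Cyp4a3, a fatty acid omega-hydroxylase, read 13.20, 13.16 and 13.01 in GC livers, against 13.81, 13.40 and 14.08 in HFD livers, and Ehhadh, a peroxisomal beta-oxidation enzyme, 13.17, 12.93 and 12.82, against 13.75, 13.19 and 14.16. For Cyp4a3 and Ehhadh the array HFD 36 was the lowest of its group and nearest the GC arrays. Ppargc1a, which ranked before Ehhadh by p, differed by -0.61 ± 0.18 (adjusted p = 0.393), with no overlap between the groups. The median of the list was -0.51 without HFD 36, -0.17 without HFD 24 and -0.15 without HFD 87. The 16 hepatocyte markers moved in the same direction with a smaller size, 15 of them below 0 with a median of -0.08, and their part in this result was not tested.

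Among 23 genes of triglyceride synthesis and lipid droplets, Aadac was called, against 0.0846% of all genes. In this list 18 lay below 0, against 43.4% of all genes, and the median was -0.17, or -0.28 without HFD 36. GC arrays all lay below HFD arrays for 6 genes, against 5.85% of all genes. They included G0s2, which inhibits the lipase ATGL, at 12.40, 11.06 and 12.40 in GC livers, against 13.64, 13.14 and 13.39 in HFD livers (-1.44 ± 0.39, adjusted p = 0.374). Lpin1, a phosphatidate phosphatase, read 9.29, 9.30 and 9.18 in GC livers, against 11.44, 9.51 and 10.94 in HFD livers (-1.37 ± 0.42, adjusted p = 0.423). Its value on HFD 36 was close to the GC arrays. Plin2, a lipid droplet coat protein, read 13.13, 12.35 and 12.96 in GC livers, against 13.21, 13.47 and 13.73 in HFD livers (-0.65 ± 0.22, adjusted p = 0.455), and the lipase Lpl differed by -0.60 ± 0.25.

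Of 22 genes of lipoproteins and lipases, none was called and 19 lay below 0, with a median of -0.10, which was -0.17 without HFD 36 and -0.05 without HFD 24. Apoa4, a protein of lymph and plasma lipoproteins, read 11.21, 8.75 and 10.17 in GC livers, against 12.33, 12.18 and 11.87 in HFD livers (-2.08 ± 0.56, adjusted p = 0.374). The GC animals spread over more than 2 log2 units for this gene. Apoa5, which promotes clearance of plasma triglyceride, read 13.38, 13.33 and 13.26 in GC livers, against 13.91, 13.61 and 14.06 in HFD livers (-0.53 ± 0.11, adjusted p = 0.227). Apom, a carrier of sphingosine phosphate, differed by -0.49 ± 0.15.

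Genes of sterol and fatty acid synthesis are the other targets of SREBP factors. Of 17 cholesterol synthesis genes, none was called, 9 lay above 0 and 8 below, and the single values ran from -0.42 for Pmvk to 0.38 for Msmo1. GC arrays all lay below HFD arrays for 4, against 5.85% of all genes, and above for 1, against 7.66%. The list median was 0.06, but it turned to -0.11 without HFD 24, -0.09 without HFD 87 and -0.04 without GC 35 or GC 55. Of 14 genes of fatty acid synthesis and desaturation, none was called and 10 lay below 0, with a median of -0.14 that turned to 0.08 without HFD 36. Scd, the desaturase that makes monounsaturated fatty acids, read 11.05, 9.93 and 9.16 in GC livers, against 12.03, 13.36 and 11.85 in HFD livers. Its groups did not overlap, but both spread over more than 1 log2 unit, and the difference of -2.37 ± 0.60 had an adjusted p of 0.349. Fasn, fatty acid synthase, read 9.11, 8.61 and 8.25 in GC livers, against 8.42, 10.35 and 8.27 in HFD livers, with HFD 36 alone above the GC range. Cyp7a1, the rate-limiting enzyme of bile acid synthesis from cholesterol, read 13.26, 13.92 and 13.36 in GC livers, against 12.92, 11.60 and 11.24 in HFD livers (1.59 ± 0.63, adjusted p = 0.544). The 23 genes of bile acid synthesis and transport had a median of -0.08, or -0.22 without HFD 36, and none was called. Of these, 15 lay below 0 and 8 above. Slc27a5, with the smallest p of that list, differed by -0.48 ± 0.17 (adjusted p = 0.473), with all GC arrays below all HFD arrays.

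In the panel of fatty liver genes, 21 were tested and Insig1 was called, against 0.0846% of all genes. Of the panel, 16 lay below 0 with a median of -0.25, or -0.14 without GC 55. Srebf1, which encodes SREBP-1, differed by 0.16 ± 0.42, its partner in lipogenesis Mlxipl by -0.17 ± 0.24, the lipogenic receptor Pparg by 0.23 ± 0.31, Acaca by -0.20 ± 0.25 and Acly by -0.14 ± 0.18. The fatty acid transporter Cd36 differed by -0.41 ± 0.25, the triglyceride synthase Dgat2 by -0.27 ± 0.16, the carnitine palmitoyltransferase Cpt1a by -0.25 ± 0.27, the lipoprotein assembly protein Mttp by 0.03 ± 0.12 and Apob by -0.13 ± 0.10. The liver hormone Fgf21 differed by -1.18 ± 0.60, with all GC arrays below all HFD arrays, the adiponectin receptor Adipor2 by -0.33 ± 0.15, the droplet protein Cidec by -0.17 ± 0.15 and the collagen Col1a1 by -0.48 ± 0.38. The adjusted p of these 14 genes ran from 0.584 to 0.952.

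Enzymes of amino acid breakdown and the urea cycle lay mostly below their HFD level as well. Of 52 tested, none was called, 46 lay below 0, against 43.4% of all genes, and 6 above, with a median of -0.26. GC arrays all lay below HFD arrays for 9, against 5.85% of all genes, and above for 3, against 7.66%. Uroc1, of histidine breakdown, read 12.95, 13.05 and 13.24 in GC livers, against 13.73, 13.44 and 13.58 in HFD livers (-0.50 ± 0.11, adjusted p = 0.227). Oat, ornithine aminotransferase, read 11.55, 11.80 and 12.45 in GC livers, against 13.95, 12.45 and 12.97 in HFD livers (-1.19 ± 0.34, adjusted p = 0.39). The highest GC array and HFD 36 met at the edge of the ranges of Oat. The proline oxidase Prodh differed by -0.73 ± 0.18, the cystathionine synthase Cbs by -0.55 ± 0.15 and the urea cycle enzyme Otc by -0.33 ± 0.10. The median of the list was -0.17 without HFD 24, -0.37 without HFD 36 and -0.26 without HFD 87. The 16 hepatocyte markers, which share Ass1 with this list, had 15 below 0 with a median of -0.08. Their part in these values was not tested.

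Targets of NRF2 lay more often above their HFD level than below it. Of 33 tested genes of this list, which includes glutathione synthesis, none was called, 22 lay above 0 and 11 below, and the median was 0.18. Over all genes 54.6% lay above 0. The median was 0.29 without HFD 36, with Gclm and Sod2 called higher, 0.14 without HFD 24 and 0.17 without HFD 87. All GC arrays lay above all HFD arrays for 10 of them, against 7.66% of all genes, and below for none. The largest difference was that of Akr7a3, an aflatoxin aldehyde reductase, which read 13.93, 13.96 and 13.40 in GC livers, against 11.64, 12.12 and 11.11 in HFD livers (2.14 ± 0.46, adjusted p = 0.318). The epoxide hydrolase Ephx1 differed by 0.40 ± 0.17 and the carbonyl reductase Cbr1 by 0.27 ± 0.12. Nqo1, a quinone reductase often used to mark NRF2 activity, read 10.51, 12.42 and 12.21 in GC livers, against 11.12, 12.88 and 11.94 in HFD livers, and its groups overlapped. Hmox1, heme oxygenase, differed by 0.28 ± 0.29 and Gclc, the catalytic partner of Gclm, by 0.16 ± 0.10. The last 3 were picked after their values were seen, as standard members of the list.

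Among glutathione transferases, 17 were tested and none was called. Gsta3 read 9.15, 9.79 and 9.76 in GC livers, against 7.70, 8.03 and 7.83 in HFD livers (1.71 ± 0.40, adjusted p = 0.327), while Gstm7 differed by -0.58 ± 0.24, and the list median of 0.08 turned to -0.04 without HFD 36 and -0.03 without HFD 87. The 25 cytochromes P450 of families 1 to 3 had a median of -0.07, or -0.16 without HFD 36. Cyp1a1, the aryl hydrocarbon receptor target, read 6.73, 7.68 and 5.36 in GC livers, against 1.69, 8.13 and 1.02 in HFD livers. HFD 36 held the highest Cyp1a1 signal of the 6 arrays, so the groups overlapped. The difference for Cyp1a1 was 2.98 ± 1.66 (adjusted p = 0.654) with all arrays and 5.24 ± 0.77 without HFD 36, where it was called (adjusted p = 0.0279). The HFD signals left in that fit, 1.69 and 1.02, lay far under the 6.664 required of a mean signal. The GC signal of 5.36 also lay under it. Signals this low may be background, so the size of 5.24 is uncertain and the call rests on them.

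Genes of the growth hormone axis and of insulin signalling gave some of the widest differences without a call. Bcl6, a transcriptional repressor, read 8.85, 8.78 and 10.16 in GC livers, against 11.84, 11.45 and 11.25 in HFD livers (-2.25 ± 0.56, adjusted p = 0.349). Cish, a STAT5 target that restrains cytokine signals, read 8.63, 8.54 and 8.88 in GC livers, against 5.12, 7.73 and 6.00 in HFD livers (2.40 ± 1.05, adjusted p = 0.583). The prolactin receptor Prlr differed by -1.82 ± 0.50 with no overlap between the groups. The GC mean of Prlr, 6.38, also lay under 6.664, so its size is uncertain too. Of the 12 genes of this list, 9 lay below 0, with a median of -0.22. Igfbp1, a growth factor binding protein that insulin represses, read 12.07, 12.87 and 11.84 in GC livers, against 13.97, 14.01 and 13.65 in HFD livers (-1.61 ± 0.32, adjusted p = 0.226). The lowest HFD array lay well above the highest GC array, and HFD 36 was the highest of its group. Of 25 genes of insulin and AMPK signalling, 17 lay below 0, with a median of -0.11, and the insulin receptor substrate Irs2 differed by -0.55 ± 0.17.

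Clock genes differed in both directions, and the time of day of tissue collection is not known for any group. Of 16 tested, none was called. Dbp, an output gene of the clock, read 11.33, 11.10 and 8.53 in GC livers, against 9.84, 6.15 and 6.55 in HFD livers (2.80 ± 1.00, adjusted p = 0.496). Bmal1, a core activator, read 6.44, 7.17 and 8.36 in GC livers, against 7.78, 9.21 and 8.91 in HFD livers (-1.31 ± 0.46, adjusted p = 0.482). Animals within each group differed by over 1 log2 unit for both genes, and the groups overlapped. Cry2 differed by 0.66 ± 0.18 and Rora by -0.65 ± 0.17, with no overlap. The list median was 0.28, but 0.05 without HFD 36 and 0.6 without HFD 24.

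Inflammatory genes lay mostly above their HFD level, with large spread between HFD animals. Of 31 tested cytokines, chemokines and NF-kB targets, none was called, 28 lay above 0, against 54.6% of all genes, and the median was 0.35. GC arrays all lay above HFD arrays for Ccl5 alone, against 7.66% of all genes. Il1b, interleukin 1 beta, read 10.84, 10.48 and 10.81 in GC livers, against 8.91, 10.79 and 9.83 in HFD livers. Tnf read 8.79, 7.56 and 6.96 in GC livers, against 5.23, 8.35 and 6.52 in HFD livers, and the chemokine Ccl2 11.06, 9.69 and 8.33, against 7.31, 10.54 and 7.96. For all 3 genes HFD 36 was within the GC range and HFD 24 was the lowest array. The list median was 0.78 without HFD 36, 0.24 without HFD 87 and 0.21 without HFD 24. It was 0.19 when GC 35 was left out and 0.57 when GC 55 was. Of 17 macrophage and Kupffer cell markers, 13 lay above 0 with a median of 0.22, and the array medians of these 17 genes were 12.25 to 12.53 in GC livers and 11.52 to 12.51 in HFD livers. All 16 T and NK cell markers lay above 0 with a median of 0.25 and array medians of 7.86 to 8.46 in GC livers and 7.44 to 8.35 in HFD livers. No marker of either list had a signal of 0 on any array, none was called, and their part in the values of the inflammatory genes was not tested. Without HFD 24 the macrophage median was -0.06 and the T and NK cell median 0.07, and without HFD 36 they were 0.33 and 0.50.

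Interferon responsive genes had 23 of 26 above 0, with a median of 0.24 that turned to -0.07 without HFD 87 and -0.01 without GC 35, and was 0.53 without HFD 36 and 0.57 without GC 55. MHC class II presentation genes had 10 of 11 above 0, with a median of 0.39, which was 0.14 without HFD 24 and 0.62 without HFD 36. Neither list had a called gene with all arrays. The 4 tested dendritic cell markers also lay above 0, with a median of 0.41, and their part in the class II values was not tested. The class II invariant chain Cd74 read 14.81, 14.62 and 14.70 in GC livers, against 14.15, 14.48 and 14.55 in HFD livers, with HFD 24 lowest (0.32 ± 0.16, adjusted p = 0.603).

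Matrix genes lay mostly below their HFD level, without a call. Of 34 tested, 27 lay below 0, against 43.4% of all genes, and 7 above, and the median was -0.27. GC arrays all lay below HFD arrays for 6, against 5.85% of all genes, and above for none. Besides Col4a5, the fibrillar collagen Col3a1 read 11.83, 11.85 and 11.36 in GC livers, against 12.10, 12.29 and 12.11 in HFD livers (-0.48 ± 0.22, adjusted p = 0.586), and the membrane metalloproteinase Mmp14 differed by -0.50 ± 0.19. Of 15 stellate cell and fibroblast markers, 11 lay below 0 with a median of -0.35. Ecm1, with the smallest p, differed by -0.42 ± 0.12, and the array medians of these markers were 8.62 to 9.22 in GC livers and 9.10 to 9.45 in HFD livers. These markers share collagen genes with the matrix list, no marker was at 0 on any array, and their part in the matrix values was not tested. The matrix median stayed below 0 when any HFD array was left out, at -0.30 without HFD 36, -0.16 without HFD 24 and -0.31 without HFD 87, and was -0.11 without GC 55.

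Among 25 nuclear receptors and hepatocyte transcription factors, Sall1 was called, against 0.0846% of all genes. In this list 15 lay below 0 and the median was -0.19, or -0.05 without HFD 24. Onecut1, a liver homeodomain factor, read 10.84, 10.15 and 9.54 in GC livers, against 8.34, 9.43 and 9.46 in HFD livers (1.10 ± 0.45, adjusted p = 0.55), and Prox1, a homeobox factor of hepatocytes, differed by -0.42 ± 0.14. Of 18 genes of apoptosis and cell stress, none was called and 13 lay above 0, with a median of 0.22. Mdm2, the ubiquitin ligase that turns over p53, read 10.45, 10.30 and 10.39 in GC livers, against 9.85, 10.10 and 9.79 in HFD livers (0.47 ± 0.13, adjusted p = 0.349). No gene was called among 25 of glycolysis and gluconeogenesis, with a median of -0.06 that turned to 0.06 without HFD 24, or among 32 acute phase and plasma protein genes, with a median of -0.10, or -0.02 without HFD 24.

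Proteasome genes had small differences, mostly above 0. Of 30 tested, 27 lay above 0, with a median of 0.12, and none was called. Psmd13, a subunit of the regulatory cap, read 10.49, 10.36 and 10.37 in GC livers, against 10.02, 10.23 and 10.01 in HFD livers (0.32 ± 0.10, adjusted p = 0.44). Oxidative phosphorylation genes, 48 in all, spanned -0.16 to 0.20 with a median of -0.05, which was 0 after quantile normalization. Genes of the unfolded protein and integrated stress response, 27 in all, had a median of 0.06, and those of lysosomal hydrolases and autophagy, 33 in all, 0.05. No gene of these lists was called.

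**Figure D4:**
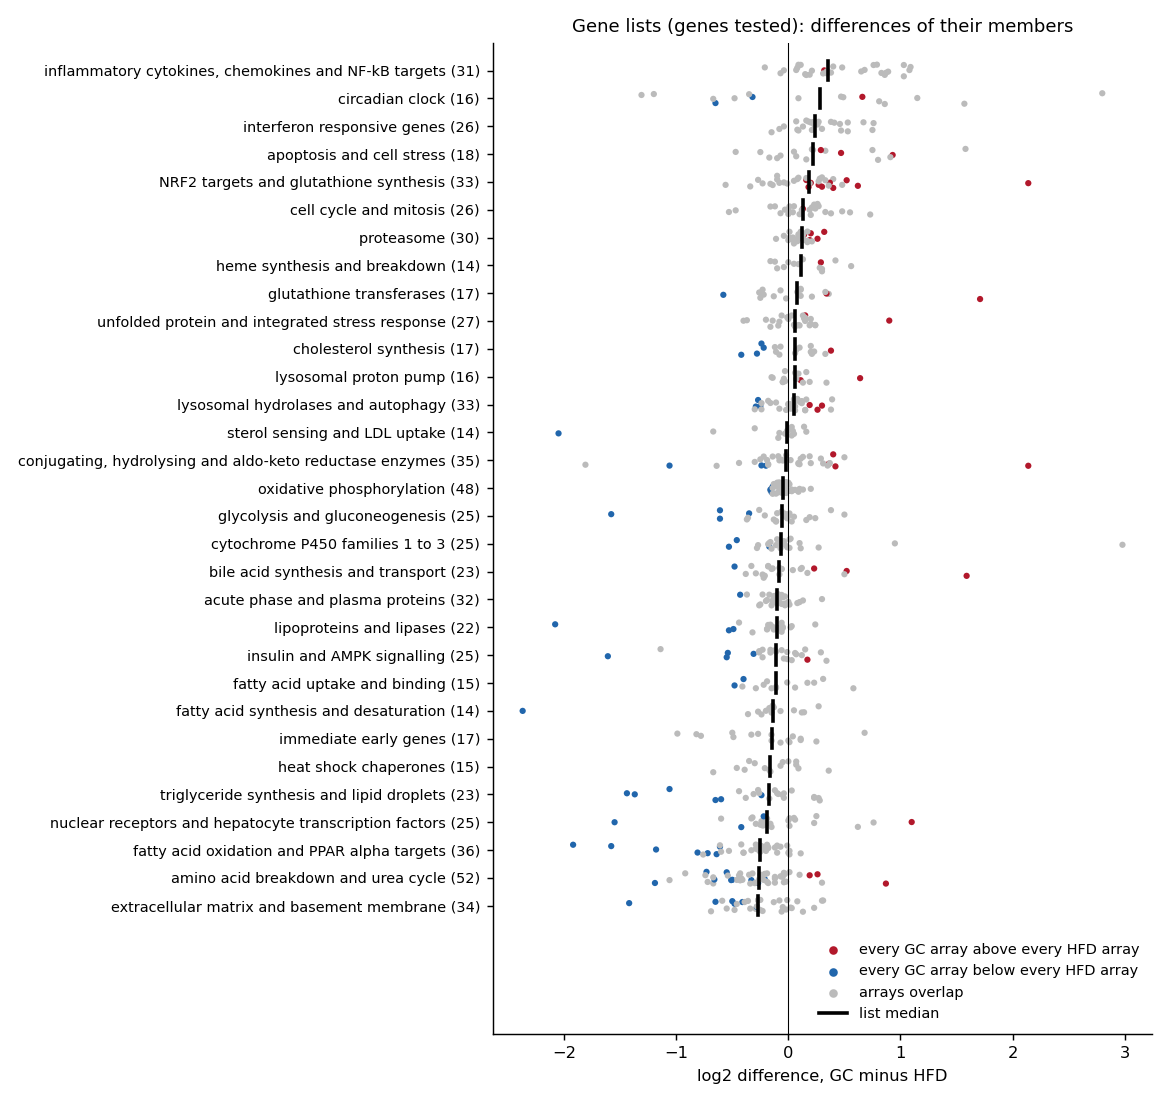
Log2 difference between GC and HFD livers (x axis) for each tested gene of the process lists with at least 14 tested genes (rows, number tested in brackets), with red and blue points where all GC arrays lie above or below all HFD arrays and a black bar at the list median. Medians run from 0.35 for inflammatory genes to -0.27 for matrix genes, and points far from 0 occur in lists whose median is near 0.

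The GC and QHD groups were also compared directly, since both followed the same schedule on the same diet and share no animals. Their doses cannot be matched, because the labels give none for GC. Livers of GC rats differed from livers of QHD rats in 22 probe sets, which is 0.18% of the 12246 tested, 16 lower (0.131%) and 6 higher (0.049%) in GC livers. Of these, 3 were also called between GC and HFD livers, namely Insig1, Sall1 and Rcan2, all lower in GC livers in both comparisons, which share the GC arrays. For 14 of the 22 the GC arrays overlapped the HFD arrays. That is a smaller share than over all probe sets, where GC and HFD arrays lay apart for 13.3%. All but 1 placeholder symbol are named below. The count was 5 without QHD 47, 6 without GC 55, 8 without GC 35 or GC 37, 12 without QHD 45 or QHD 46, 39 without HFD 24 and 56 without HFD 36.

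Among the genes lower in GC than in QHD livers, Abcc3 and Me1 belong to the NRF2 list and Gstp1 to the glutathione transferases. Gstp1, a glutathione transferase, read 10.99, 10.74 and 10.92 in GC livers, against 11.72, 12.06 and 12.69 in QHD livers (-1.27 ± 0.19, adjusted p = 0.0265), and the mean of HFD livers was 10.77. Ugt2b1, a glucuronosyltransferase, read 12.92, 13.24 and 13.00 in GC livers, against 14.30, 13.93 and 14.21 in QHD livers (-1.09 ± 0.16, adjusted p = 0.0213). GC and QHD arrays did not overlap for either gene, as for 18.0% of all probe sets, while GC arrays overlapped HFD arrays for both. The export pump Abcc3 fell by 1.60 relative to QHD livers, the prostaglandin reductase Ptgr1 by 0.87 and the iron-binding protein Pir by 0.75. So did 1 probe set of the alcohol dehydrogenase Adh1c, by 0.89, and 1 of malic enzyme Me1, which makes NADPH, by 0.98. The adjusted p of these genes ran from 0.00939 for Adh1c to 0.0455 for Abcc3. For Adh1c and Me1, a tested probe set of higher mean signal was not called.

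Other genes lower in GC than in QHD livers were Lama3, a laminin chain, with 7.41, 6.60 and 7.63 in GC livers, against 9.27, 9.27 and 9.18 in QHD livers (-2.02 ± 0.25, adjusted p = 0.00839), and the clock repressor Cry1, with 7.65, 7.95 and 8.59 in GC livers, against 9.34, 9.60 and 9.86 in QHD livers (-1.54 ± 0.26, adjusted p = 0.0455). For Lama3 the GC arrays overlapped the HFD arrays, with a difference between those groups of -0.25 (adjusted p = 0.782). Mcrip2 differed by -1.33, the exchange factor Arhgef26 by -0.97 and the transferrin receptor Tfrc by -0.94.

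The 6 genes higher in GC than in QHD livers were Xiap, Gckr, Tsc22d1, Sdr42e1, Oaf and Gucy1b2. Gckr, the regulatory protein that binds glucokinase in the nucleus, read 11.27, 11.23 and 11.67 in GC livers, against 10.12, 9.88 and 10.16 in QHD livers (1.34 ± 0.15, adjusted p = 0.00389). HFD livers averaged 12.00, so that GC arrays lay between the other groups. Xiap read 10.72, 10.57 and 10.46 in GC livers, against 9.61, 8.99 and 9.09 in QHD livers (1.35 ± 0.19, adjusted p = 0.0213). Xiap was highest in GC livers of the groups on the high-fat diet, with an HFD mean of 9.65. The leucine zipper protein Tsc22d1 differed by 1.31, the short-chain dehydrogenase Sdr42e1 by 1.18, Oaf by 1.12 and the guanylate cyclase subunit Gucy1b2 by 0.93.

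**Figure D5:**
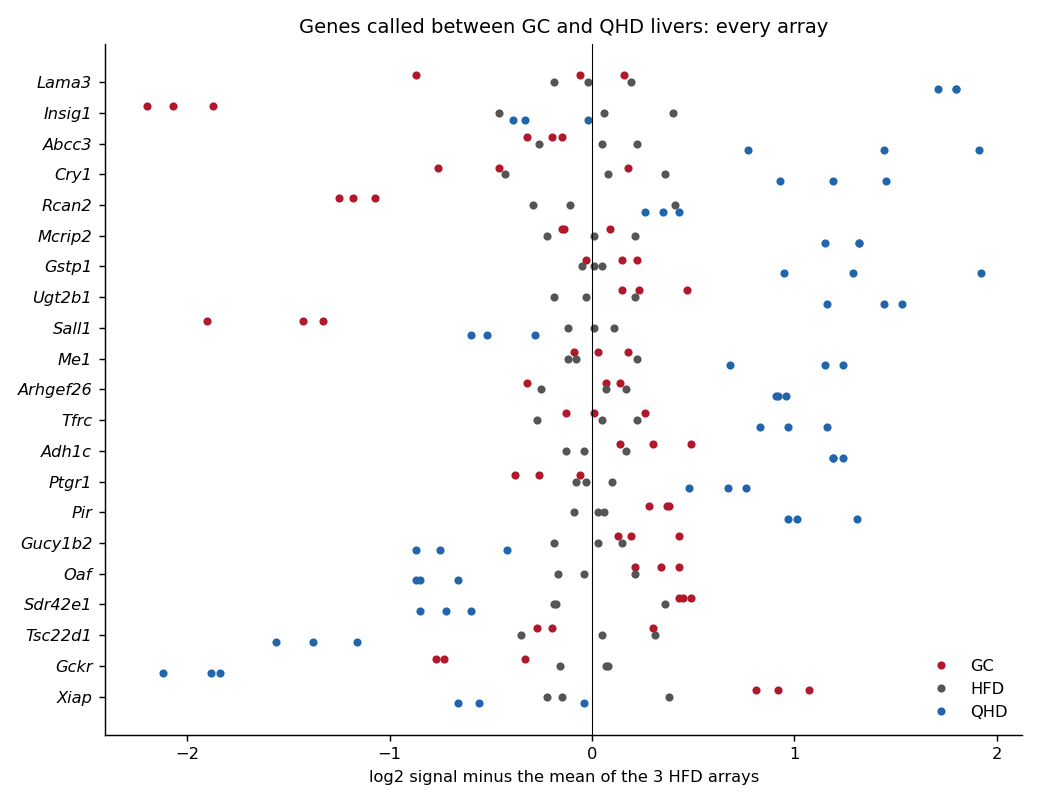
Log2 signal of each GC, HFD and QHD array minus the mean of the HFD arrays (x axis) for the 21 named genes called between GC and QHD livers (rows). QHD arrays stand apart from GC arrays in every row, and GC arrays stand apart from HFD arrays for Insig1, Rcan2, Sall1, Xiap, Gckr, Pir and Sdr42e1.

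The other 5 genes called between GC and HFD livers were not called between GC and QHD livers. The difference between GC and QHD livers was 0.44 for Atp6v1d (95% interval 0.24 to 0.64, adjusted p = 0.109), -0.77 for Pkdcc (-1.18 to -0.35, adjusted p = 0.177), -0.42 for Aadac (-0.77 to -0.08, adjusted p = 0.422), -0.29 for AKR1C3l1 (-0.74 to 0.17, adjusted p = 0.706) and 0.42 for Mtmr7 (-0.06 to 0.90, adjusted p = 0.592). The intervals are not adjusted for the number of probe sets, and these p-values do not show that the mixture and the decoction acted alike. Beside their GC values, the differences of QHD from HFD livers, which share the HFD arrays, were -1.86 for Mtmr7, -1.10 for AKR1C3l1, -0.64 for Aadac, -0.49 for Pkdcc and 0.19 for Atp6v1d. Gclm and Akr7a3, described above, differed between GC and QHD livers by -0.58 (adjusted p = 0.0524) and -0.43 (adjusted p = 0.808). The NRF2 list as a whole had a median of -0.24 for GC minus QHD, against 0.01 for all genes.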

How the data were processed

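Total RNA of 12 rat livers, 6 µg from each, was hybridised to 1 Affymetrix array per animal, per the labels' protocols. The deposited values are log2 signals that the authors made with Affymetrix Expression Console and MAS5, per the submitters' processing notes. Their versions are not recorded in what was used here. The linear signals have a 2% trimmed mean of 500.2 to 500.3 on every array, and 76 to 220 probe sets per array stand at 0. The deposited table also holds p-values, from a test that is not named, and fold changes as a ratio, which equal 2 raised to the absolute difference of the group means to within a relative 1.7e-06.

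Of 31099 probe sets, 20832 carry 1 gene symbol, 436 several and 9831 none, from the platform annotation, and 20764 matched a RefSeq gene. Probe sets with 1 symbol and a mean log2 signal over 11 arrays above the median of all probe sets (6.664) were tested, 12246 in all. Linear models with 1 mean per group over the 11 arrays were fitted with limma 3.58.1 (eBayes with trend and robust) in R 4.3.3, with 7 residual degrees of freedom. The array labelled normal diet 3 was left out. Every adjusted p of a limma fit is two-sided and adjusted by Benjamini-Hochberg over all probe sets tested in that fit. These were 12246 in the fit of 11 arrays, and the number could differ in other fits, with 12231 without HFD 36. A probe set was called below 0.05. Errors are moderated SE. The intervals are 95% intervals of the fit of 11 arrays.

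Gene lists are described by counts and medians, each gene by its probe set with the highest mean signal, with no test of the list. Over all 9459 genes, 0.0846% were called, 54.6% lay above 0 and 43.4% below. Named genes were all genes called, those of smallest p with groups that do not overlap up to 10 a direction, up to 4 per list by smallest p, and a fatty liver panel, with placeholder symbols counted and not named; the largest values of a list are shown in full. Some list members, Ehhadh and Lpl among them, were named outside this rule with their values seen. The groups compared, the lists and the choice to leave out normal diet 3 were made with earlier results of these data known. Alternatives changed the arrays fitted, array weights, normalization, pseudocount, filter, probe set per gene and moderation, and left out each array in turn. The fit was tested on simulated data. Figures used Python 3.11.15, pandas 2.3.3 and matplotlib 3.10.9.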

Additional observations from a re-analysis of the deposited data

Results flagged for a closer look

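The array labelled normal diet 3, which entered no comparison here, carried a strong fat cell signal. Its median log2 signal over 12 adipocyte markers was 13.01, against 6.17 to 7.83 on the other 11 arrays, while its median over 16 hepatocyte markers was 6.26, against 14.66 to 15.06. It was singled out because this signal lies outside the measurements compared, and above every other array of the series. Its source was not tested.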

How the results depend on the processing

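Between GC and HFD livers, 8 probe sets were called. The count was 0 over all 12 arrays (298 at an unadjusted p under 0.05), 0 with only the 6 arrays compared (866) and 0 from the authors' deposited p-values after Benjamini-Hochberg (1214 of 31099 unadjusted). It was 2 with no filter on signal, 2 without trend and robust moderation, and 470 with array weights. The weights were 0.506 for HFD 24, 0.5 for HFD 36 and 2.501 for HFD 87. They were 0.604 for GC 35, 3.335 for GC 37, the largest of all arrays, and 0.934 for GC 55. Leaving out 1 array gave 0 (without HFD 87) to 104 (without HFD 36) calls. Quantile normalization, 32 added to the linear signals, a filter at the 75th percentile and 1 probe set per gene gave 7 to 10. Between GC and QHD livers, 22 were called, against 0 over all 12 arrays (357 at an unadjusted p under 0.05), 68 with only the 6 arrays compared, 208 with array weights and 9 without trend and robust moderation, and 5 (without QHD 47) to 56 (without HFD 36) when 1 array was left out. The cause of these changes was not tested. Among 878 medians of 44 lists under these alternatives, 11 moved by more than the spread between replicates and 27, from 13 lists, turned sign, 22 of them with 1 array left out. No named gene changed sign while called. No paired analysis was possible because the replicate numbers of the groups differ and pair no animals. Detection calls were not used, so signals near the filter may be background.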

Other observations

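RT1-Bb, the beta chain of a rat MHC class II molecule, was read by a pair of probe sets that differed among animals, and was chosen after its values were seen. The first read 12.93, 2.87 and 13.16 in GC livers, against 11.83, 12.86 and 11.90 in HFD livers. The second read 2.65, 13.33 and 6.45 in GC livers, against 4.92, 4.70 and 12.28 in HFD livers. The animal GC 37 was thus low on the first and high on the second. On neither probe set did the groups stand apart.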
